A study of Mus musculus with 14 samples.

Results

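The DNA replication machinery was followed through 46 genes, chosen by name for their part in copying the genome, in blood drawn from mouse embryos at E12.5. Each gene was read by 1 probe set of an Affymetrix mouse array, the one with the highest mean over all 14 arrays among those that carry its symbol alone. Of the 46 genes 45 had such a probe set, out of 18194 genes on the array, and Chaf1a was not analysed here. A gene was tested when 3 or more arrays read it at 6 or higher on the log2 scale, and 42 of the 45 did, as did 7393 of all genes. Gins3, Rfc1 and Tyms lay under that limit. Every value of Gins3 and Tyms was under 6, and Rfc1 reached 6 on 1 array only, Cbfb+/MYH11 array 1 (6.15). Of the 42 genes 13 reached the limit only through arrays of a mutant, so a higher value in a mutant was partly a condition of their being tested. Among the 13, 4 would not have passed without the Cbfb+/MYH11 arrays, namely Orc5, Gins1, Pola1 and Pole2. The rest of the 13 were Orc4, Orc6, Cdc6, Cdc45, Prim2, Pole, Rpa2, Rpa3 and Chaf1b. Readings under 6 may be background, so the size of the changes of these 13 genes is uncertain. The other 29 of the 42 genes reached the limit through littermate arrays alone.

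Chimeras carrying the Cbfb-MYH11 fusion were crossed to C57/Bl6 females, which gave embryos with 1 fused Cbfb allele (Cbfb+/MYH11, 4 arrays) and littermates with both alleles intact (WT, 4 arrays). An intercross of Cbfb+/- mice gave embryos without Cbfb (Cbfb-/-, 3 arrays) and intact littermates (Cbfb+/+, 3 arrays). Each RNA was pooled from blood of 8 to 10 embryos of 1 genotype. Arrays of a group are technical replicates by their labels, with no word on the number of pools behind them. Every p-value thus weighs a difference against array-to-array spread, which may be technical and may hold no spread between pools. In the fits over 4 groups 1 spread per gene was shared by all groups and took in a step between WT arrays described below. Cbfb is the subunit that stabilises the Runx transcription factors on DNA, and its fusion to the smooth muscle myosin gene MYH11 occurs in a form of human myeloid leukaemia. Blood of this age is mostly made of nucleated red cells from the yolk sac, and of 13 measured red cell markers 12 were at or above 6 on every array. In such bulk samples fewer cells of a type and less RNA per cell cannot be told apart.

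Replication starts at origins that are bound by the origin recognition complex, onto which Cdc6 and Cdt1 load the Mcm helicase ring. Cdc45 and the GINS proteins switch the helicase on, DNA polymerase alpha with primase starts each strand, and polymerases delta and epsilon extend it, held to the template by the sliding clamp Pcna. Transcripts of most of these genes rise toward S phase, largely under E2F transcription factors, so in a tissue they mark dividing cells. Yolk sac red cells go on dividing in the circulation until they mature and stop.

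Genes of nearly every step of replication were higher in blood with the fusion than in that of WT littermates. Of the 42 tested genes 38 rose and 0 fell, where 30.5% of all tested genes rose and 5.63% fell. Here and below a gene rose or fell when its limma p, adjusted by Benjamini-Hochberg, was under 0.05 and its fold change reached 1.5, and such a gene is said to be called. The log2 differences ran from -0.16 (Orc1) to 2.45 (Cdc6), with a median of 1.32 over the 42 genes and 0.26 over all tested genes. Among the 29 genes tested through littermate arrays alone 25 rose, with a median of 1.32. At an unadjusted p under 0.05 the counts of limma were 39 higher and 0 lower. The arrays did not overlap in 37 of the 42 genes, with every Cbfb+/MYH11 array above every WT array, against 39.5% of all tested genes.

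Most of the genes were also higher in blood without Cbfb than in that of its own littermates. Of the 42 genes 29 rose and 0 fell, where 19.5% of all tested genes rose and 6.65% fell. The differences ran from -0.44 (Orc1) to 1.74 (Dut), with a median of 1.01 against 0.13 over all tested genes. Of the 29 genes tested through littermate arrays alone 19 rose. Every Cbfb-/- array was above every Cbfb+/+ array in 41 of the 42 genes, against 44.3% of all tested genes. At an unadjusted p under 0.05 limma gave 37 genes higher and 1 lower, Orc1. Of the 42 genes 28 rose in both mutants, against 10.4% of all tested genes.

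The medians of the 42 genes on each array show the order of the groups. They were 7.63, 7.61, 7.70 and 7.70 on Cbfb+/MYH11 arrays 1 to 4 and 7.65, 7.40 and 7.52 on the Cbfb-/- arrays. On the Cbfb+/+ arrays they were 6.55, 6.61 and 6.51. The WT arrays fell apart into pairs, with 6.08 and 6.13 on arrays 1 and 2 and 7.13 and 6.97 on arrays 3 and 4. The WT group was therefore the most variable, with a median SD of 0.665 over the genes, against 0.14 in Cbfb+/MYH11, 0.08 in Cbfb-/- and 0.11 in Cbfb+/+. The order of group means was Cbfb+/MYH11, Cbfb-/-, WT, Cbfb+/+ from high to low in 21 genes, and the same with the wild types exchanged in 10. In 7 genes Cbfb-/- led, followed by Cbfb+/MYH11, Cbfb+/+ and WT, and the last 4 genes had other orders.

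**Figure D1:**
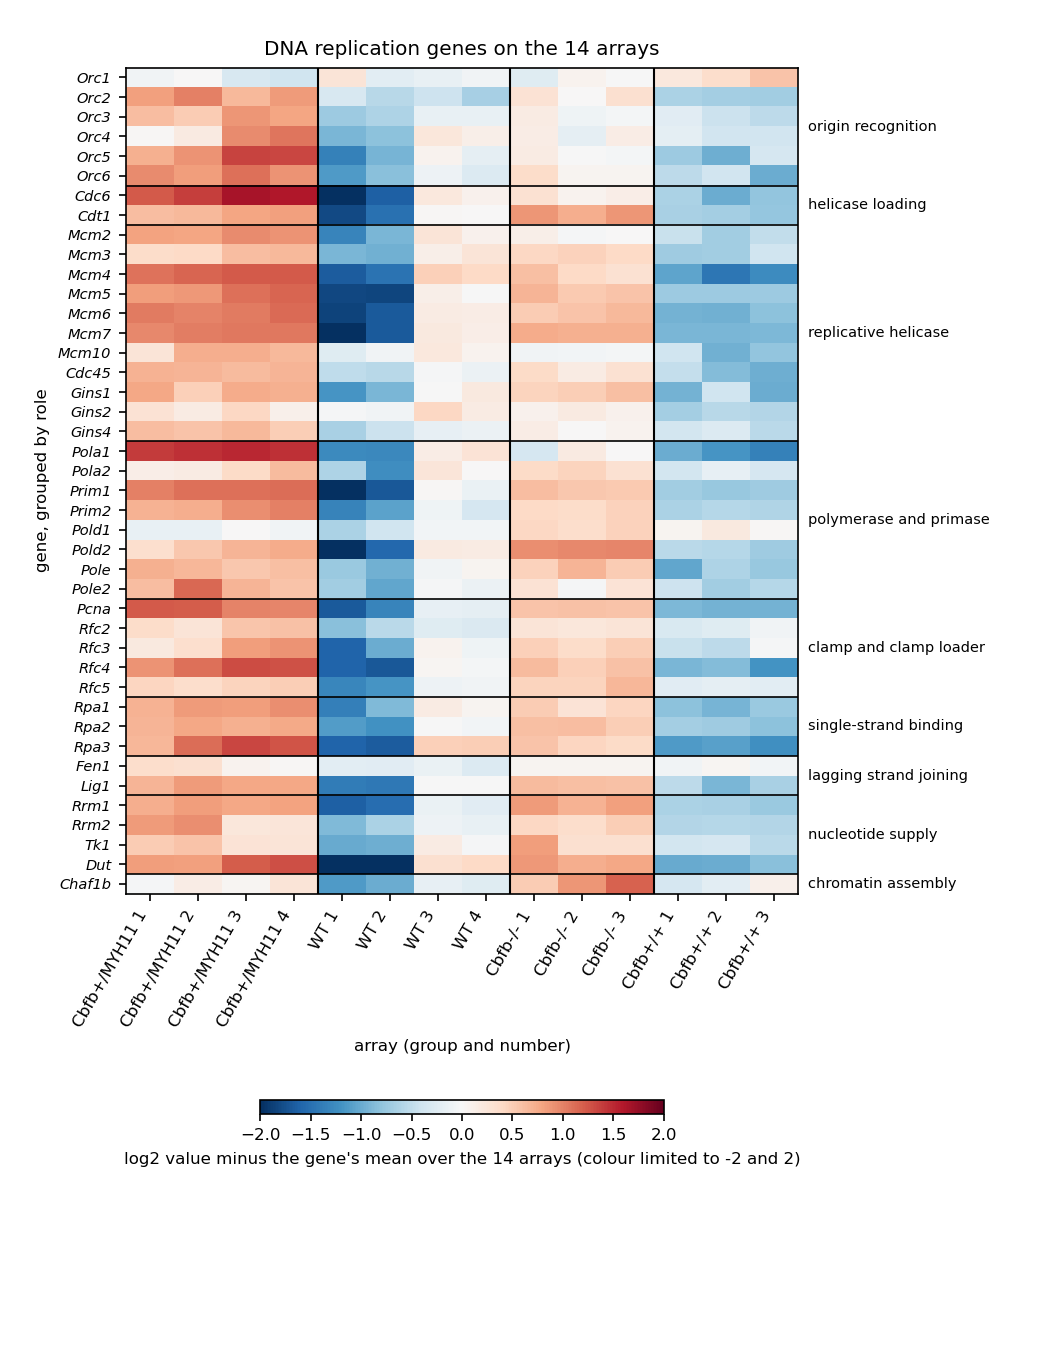
Log2 values of the 42 tested replication genes (rows, grouped by role) on the 14 arrays (columns), each as the difference from the gene's mean over the arrays, with the colour limited to -2 and 2. Cbfb+/MYH11 and Cbfb-/- arrays are mostly red and Cbfb+/+ arrays mostly blue, WT arrays 1 and 2 are the darkest blue, and WT arrays 3 and 4 are near white.

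These counts depend on the arrays' scaling and on what is taken as a replicate. After quantile normalization 32 genes rose with the fusion and 25 in Cbfb-/-, while over all tested genes the calls with the fusion were 1290 higher and 1070 lower, in place of 2255 and 416, and those in Cbfb-/- 995 and 917, in place of 1443 and 492. The median of all tested genes was then -0.04 and -0.05. With the arrays averaged to 6 putative pools, 1 for each array pair of the fusion cross and 1 for each genotype of the other cross, limma called 0 of the 42 genes in either mutant. The smallest adjusted p was then 0.0817 with the fusion and 0.654 in Cbfb-/-, and 25 and 3 of the genes had an unadjusted p under 0.05. That fit leaves the Cbfb-/- cross with 1 pool per genotype, whose spread is borrowed from the fusion cross.

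Of the 6 subunits of the origin recognition complex, 5 rose with the fusion and 2 in Cbfb-/-. Orc2, a core subunit, was at 8.11, 8.29, 7.94 and 8.14 in Cbfb+/MYH11 and at 6.96, 6.73, 6.88 and 6.63 in WT. In Cbfb-/- it was at 7.58, 7.30 and 7.60, and in Cbfb+/+ at 6.66, 6.60 and 6.59. The mutant arrays lay above their littermates without overlap in both crosses, and the WT arrays did not fall into pairs. Orc2 rose 2.49-fold with the fusion (95% interval 2.14 to 2.91, limma adjusted p = 6.17e-07) and 1.84-fold in Cbfb-/- (1.54 to 2.19, adjusted p = 2.97e-04). A second Orc2 probe set, at most at 6.28 on any array, was not called in either mutant. It was at 0.58 with the fusion, under the 1.5-fold limit, and at 0.45 in Cbfb-/- (limma adjusted p = 0.0572). Orc6, which joins the core subunits on DNA, rose by 1.54 and 0.79 log2 units in the respective mutants. Orc5 (1.67), Orc3 (1.11) and Orc4 (0.90), further subunits of the complex, rose with the fusion and were not called in Cbfb-/-, at 0.72 (adjusted p = 0.0794), 0.40 (adjusted p = 0.0656) and 0.35 (adjusted p = 0.394). Orc5 was under 6 on every array outside Cbfb+/MYH11, so it was tested only through the group where it is high. Its other readings may be background.

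Orc1, an ATPase subunit, did not follow the others. It was at 6.22, 6.30, 5.96 and 5.88 in Cbfb+/MYH11, 6.54, 6.08, 6.14 and 6.22 in WT, 6.04, 6.35 and 6.28 in Cbfb-/-, and 6.49, 6.63 and 6.86 in Cbfb+/+. The groups overlapped in the fusion cross, while the Cbfb-/- arrays lay below all Cbfb+/+ arrays. The differences were -0.16 with the fusion (adjusted p = 0.315) and -0.44 in Cbfb-/- (adjusted p = 0.0364, under the 1.5-fold limit). After quantile normalization the latter became -0.63 (adjusted p = 0.0188), and Orc1 fell. A second Orc1 probe set, at most at 6.25 on any array, gave 0.49 and 0.10 and was not called, so the probe sets of Orc1 disagreed in sign.

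Both helicase loading factors rose with the fusion. Cdc6, the ATPase that loads the Mcm ring, was at 7.29, 7.45, 7.72 and 7.67 in Cbfb+/MYH11, against 3.45, 4.44, 6.28 and 6.16 in WT. It was at 6.37, 6.13 and 6.20 in Cbfb-/- and at 5.43, 5.07 and 5.27 in Cbfb+/+. The Cbfb-/- arrays thus lay at the level of WT arrays 3 and 4, and only the fusion arrays were above 7. Cdc6 rose 5.45-fold with the fusion (95% interval 2.64 to 11.2, adjusted p = 8.56e-04), the largest change among the 42 genes. Values under 6 may be background, so this fold is uncertain. In Cbfb-/- its difference was 0.98 (-0.23 to 2.18, adjusted p = 0.164), which was not called although the arrays did not overlap. Cdt1, the partner of Cdc6, rose by 1.54 with the fusion and 1.53 in Cbfb-/-, from group means of 7.52 ± 0.97 (SD, n = 4) in WT and 7.63 ± 0.07 (SD, n = 3) in Cbfb+/+.

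Of 11 tested genes of the helicase and its activators, 10 rose with the fusion and 9 in Cbfb-/-. Mcm5, a subunit of the ring, was at 9.40, 9.43, 9.66 and 9.72 in Cbfb+/MYH11 and at 6.74, 6.72, 8.68 and 8.56 in WT. It was at 9.25, 9.08 and 9.14 in Cbfb-/- and at 7.83, 7.84 and 7.83 in Cbfb+/+. The 3 Cbfb+/+ arrays lay between the WT pairs. Mcm5 rose 3.67-fold with the fusion (95% interval 2.07 to 6.51, adjusted p = 0.00106) and 2.50-fold in Cbfb-/- (1.29 to 4.84, adjusted p = 0.0287). Mcm7, Mcm6 and Mcm4, further subunits, rose by 1.91, 1.85 and 1.75 with the fusion and by 1.63, 1.49 and 1.69 in Cbfb-/-. Mcm3 rose by 0.88 and 1.03. Mcm2 rose by 1.34 with the fusion, and its difference of 0.58 in Cbfb-/- was not called (adjusted p = 0.142). A second Mcm2 probe set rose in both mutants, by 1.40 and 1.15.

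The helicase activators were less uniform than the ring. Cdc45, which rides with the Mcm ring and GINS, rose by 0.98 and 1.05, and Gins1 by 1.16 and 1.29. Mcm10 rose by 0.60 and 0.66. Gins4 rose by 0.92 with the fusion and was at 0.47 in Cbfb-/- (adjusted p = 0.0146), under the 1.5-fold limit. Gins2 went the other way round. It was at 6.89, 6.77, 7.01 and 6.70 in Cbfb+/MYH11, 6.58, 6.53, 7.01 and 6.77 in WT, 6.69, 6.78 and 6.69 in Cbfb-/-, and 5.92, 6.04 and 6.02 in Cbfb+/+. The Cbfb+/+ arrays were low and the other groups overlapped. It rose by 0.72 in Cbfb-/- (adjusted p = 0.00114) and was not called with the fusion (0.12, 95% interval -0.11 to 0.35, adjusted p = 0.346). Gins3, under the testing limit, had group means of 4.98, 4.88, 5.02 and 4.78 in Cbfb+/MYH11, WT, Cbfb-/- and Cbfb+/+.

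**Figure D2:**
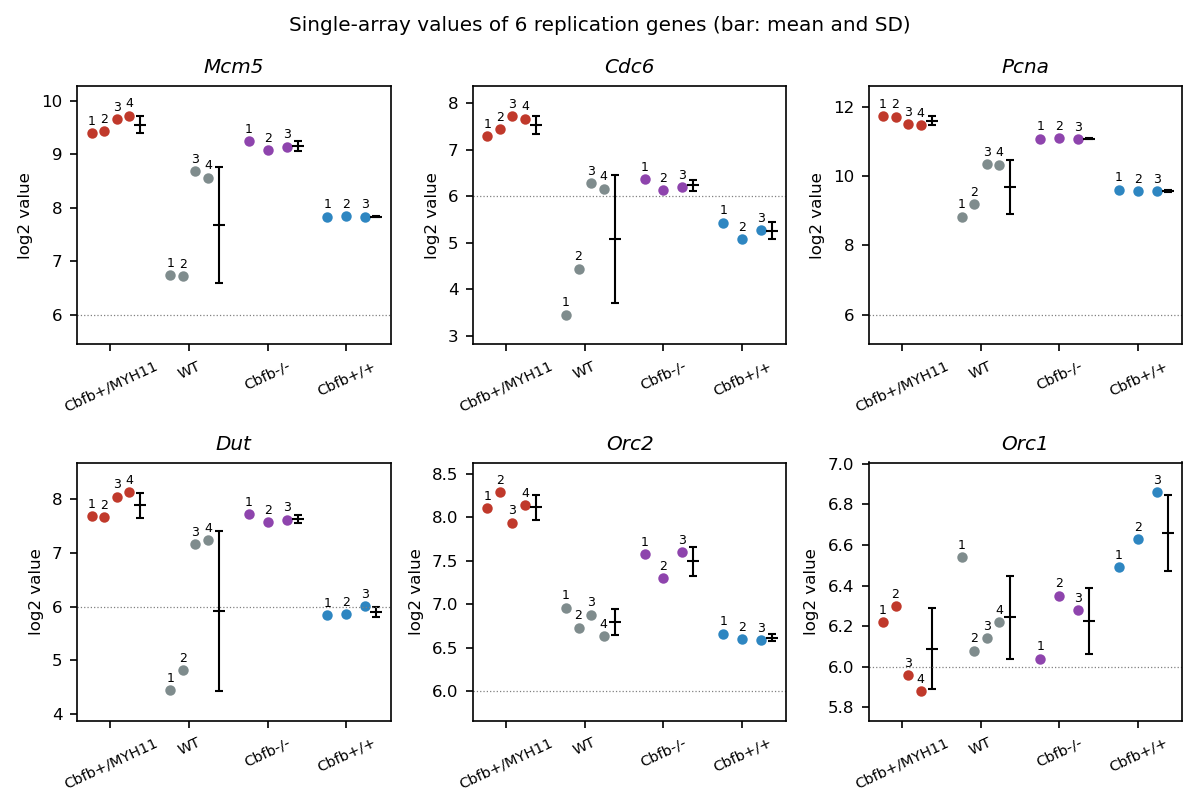
Log2 values of 6 replication genes on each array, by group, with the array number over each point, the group mean and SD beside the points (n = 4 in the fusion cross, n = 3 in the other), and a dotted line at the testing limit of 6. For Mcm5, Cdc6, Pcna and Dut WT arrays 1 and 2 lie far below WT arrays 3 and 4, for Orc2 the WT arrays lie together, and for Orc1 the groups of the fusion cross overlap.

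The promoters of several of these loading and helicase genes carry letters that E2F factors are known to bind. The genes below come from a set list (Mcm2 to Mcm7, Cdc6, Cdt1, Pcna, Rrm2, Tyms and Orc1). Mcm4 had no promoter sequence to search. The genes shown are those with a match before the start. Of these 4 rose with the fusion and 1 did not. Each sequence is taken from RefSeq (GRCm38.p6), runs 5′ to 3′ on the strand of the gene and ends upstream of its start, and the capitals mark the matches to the E2F letters. Mcm5 lies on the plus strand (chr8:75109326-75109397), Mcm6 on the minus strand (chr1:128359715-128359845), Mcm7 on the minus strand (chr5:138172011-138172078), Cdc6 on the plus strand (chr11:98907983-98908050) and Orc1 on the plus strand (chr4:108579397-108579453).
Mcm5: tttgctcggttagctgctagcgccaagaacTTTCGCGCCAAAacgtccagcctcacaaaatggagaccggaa
Mcm6: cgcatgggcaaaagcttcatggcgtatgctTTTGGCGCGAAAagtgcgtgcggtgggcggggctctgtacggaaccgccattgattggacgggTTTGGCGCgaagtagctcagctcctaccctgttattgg
Mcm7: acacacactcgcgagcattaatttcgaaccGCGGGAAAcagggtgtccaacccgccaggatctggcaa
Cdc6: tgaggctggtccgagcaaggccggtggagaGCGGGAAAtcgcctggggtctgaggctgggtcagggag
Orc1: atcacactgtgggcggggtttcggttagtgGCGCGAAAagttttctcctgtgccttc

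The stretch of 12 capitals in Mcm5 and the first in Mcm6 each hold 2 overlapping matches, 1 on either strand, and were counted as 2. Mcm7 has a further match, not shown, at or after a start. The nearest match before the start lay 20 bases upstream of it in Orc1, 40 in Mcm6, 131 in Cdc6, 142 in Mcm5 and 158 in Mcm7. The letters searched were TTTCCCGC, TTTGGCGC, TTTCGCGC and TTTGCCGC on both strands, in the window from 250 bases before to 50 bases after each start. No RefSeq window carried the symbol of Mcm4, Gins1, Gins2, Gins4, Rfc2, Prim2 or Pole. RefSeq windows matched 39 of the 46 genes by symbol. Of these 14 held a match (35.9%), against 704 of 27025 genes with a window (2.6%). The letters CCAAT, on either strand, were in 24 of the 39 (61.5%) and in 41.1% of all genes, and both were in 8 (20.5%) and in 1.26%. All 8 helicase genes with a window held CCAAT and 5 of them held E2F letters. No E2F letters were found in the windows of Pcna, Dut, Rrm1, Prim1 and Rfc4, which also rose with the fusion. Orc1 held a match and was not called.

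Of 8 polymerase and primase genes 7 rose with the fusion and 6 in Cbfb-/-. Prim1, the catalytic primase subunit, was at 8.58, 8.68, 8.68 and 8.69 in Cbfb+/MYH11 and at 5.53, 5.88, 7.59 and 7.44 in WT. It was at 8.19, 8.11 and 8.10 in Cbfb-/- and at 6.88, 6.81 and 6.86 in Cbfb+/+. Neither cross showed overlap, and the WT arrays again fell into pairs. Prim1 rose by 2.04 with the fusion (95% interval 1.25 to 2.84, adjusted p = 4.41e-04) and by 1.28 in Cbfb-/- (0.37 to 2.20, adjusted p = 0.0277).

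Pola1, the catalytic subunit of polymerase alpha, rose by 1.99 and 1.12. Its values of 7.08 to 7.19 in Cbfb+/MYH11 stood over all others, which were at most 5.95 (WT array 4). Pola1 was thus tested only through the group where it is high, and its other readings may be background. Prim2, the other primase subunit, rose by 1.55 and 1.02, and Pole2, a subunit of the leading strand polymerase epsilon, by 1.22 and 0.74. A second Prim2 probe set was called with the fusion (1.43) and not in Cbfb-/- (0.39). Pole, the catalytic subunit of that enzyme, rose by 1.05 and 1.36. Pold2, an accessory subunit of polymerase delta, rose by 1.41 and 1.55 and was highest in Cbfb-/-, at 7.93 to 7.97 against 7.33 to 7.73 in Cbfb+/MYH11. Pola2, the regulatory subunit of polymerase alpha, rose by 0.74 with the fusion and was not called in Cbfb-/- (0.67, adjusted p = 0.0766).

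Pold1, the catalytic subunit of polymerase delta, was not called in either mutant. It was at 6.63 to 6.79 in Cbfb+/MYH11, 6.15 to 6.72 in WT, 7.13 to 7.24 in Cbfb-/- and 6.81 to 6.98 in Cbfb+/+. The differences were 0.20 (95% interval -0.06 to 0.45, adjusted p = 0.160) and 0.31 (0.02 to 0.60, adjusted p = 0.0804). A second Pold1 probe set gave 0.43 with the fusion, not called, and 0.91 in Cbfb-/-, called.

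The sliding clamp and its loader rose as a group with the fusion, in 5 of 5 tested genes, and 2 of them rose in Cbfb-/-. Pcna, the clamp itself, was at 11.73, 11.72, 11.50 and 11.48 in Cbfb+/MYH11, at 8.83, 9.19, 10.35 and 10.33 in WT, at 11.08, 11.09 and 11.07 in Cbfb-/- and at 9.61, 9.56 and 9.56 in Cbfb+/+. No fusion array overlapped any other group. Pcna rose 3.81-fold with the fusion (95% interval 2.51 to 5.78, adjusted p = 8.40e-05) and 2.83-fold in Cbfb-/- (1.75 to 4.57, adjusted p = 0.00382). Of the loader subunits, Rfc4 rose by 1.97 and 1.56. Rfc3 (1.22), Rfc5 (1.09) and Rfc2 (0.92) rose with the fusion and were at 0.78 (adjusted p = 0.0936), 0.72 (adjusted p = 0.05005) and 0.46 (adjusted p = 0.0241, under the 1.5-fold limit) in Cbfb-/-. Further probe sets of Rfc3 and Rfc2, at most at 6.93 and 6.15 on any array, were called in Cbfb-/-, at 1.62 and 0.95. Rfc1, the large subunit, was not tested, with group means of 5.87, 5.26, 5.74 and 4.85 in Cbfb+/MYH11, WT, Cbfb-/- and Cbfb+/+.

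The 3 subunits of the single-strand binding protein moved by similar amounts in both mutants. Rpa1, the large DNA-binding subunit, rose by 1.34 and 1.24, Rpa2 by 1.33 and 1.31, and Rpa3, the small subunit, by 1.66 and 1.61. Their differences between the mutant effects were 0.10 (95% interval -0.78 to 0.98), 0.03 (-0.75 to 0.80) and 0.05 (-1.39 to 1.495). Differences inside these intervals were not detectable with these arrays. Rpa2 and Rpa3 reached the testing limit only through arrays of the mutants. Rpa3 was at 4.25 to 4.83 on WT arrays 1 and 2 and in Cbfb+/+, where readings may be background, so the size of its changes is uncertain.

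On the lagging strand Lig1, the ligase that seals Okazaki fragments, rose by 1.48 and 1.31. Fen1, the nuclease that trims their flaps, depended on the probe set. The chosen one was at 9.86 to 10.19 in Cbfb+/MYH11, 9.56 to 9.70 in WT, 9.88 to 9.89 in Cbfb-/- and 9.76 to 9.87 in Cbfb+/+. Its differences of 0.41 (adjusted p = 0.00124) and 0.08 (adjusted p = 0.508) were under the 1.5-fold limit. Another Fen1 probe set, which reached 8.70, rose by 1.83 and 1.13 in the respective mutants.

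All 4 tested genes of nucleotide supply rose in both mutants. Dut, which removes dUTP, was at 7.69, 7.67, 8.05 and 8.13 in Cbfb+/MYH11 and at 4.45, 4.82, 7.17 and 7.24 in WT. It was at 7.72, 7.58 and 7.62 in Cbfb-/- and at 5.84, 5.86 and 6.01 in Cbfb+/+. The step between the WT pairs was as large as that between any groups. Dut rose 3.91-fold with the fusion (95% interval 1.79 to 8.54, adjusted p = 0.00573) and 3.34-fold in Cbfb-/- (1.36 to 8.24, adjusted p = 0.0335). Rrm1 and Rrm2, the subunits of ribonucleotide reductase, rose by 1.66 and 1.00 with the fusion and by 1.47 and 1.00 in Cbfb-/-. Tk1, the S phase thymidine kinase, rose by 0.86 and 0.91. Tyms, which makes dTMP, was read by a probe set that stayed between 3.38 and 3.95 on all arrays, so its change was not measured. Chaf1b, a subunit of the factor that places histones behind the fork, rose by 0.74 and 1.00.

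**Figure D3:**
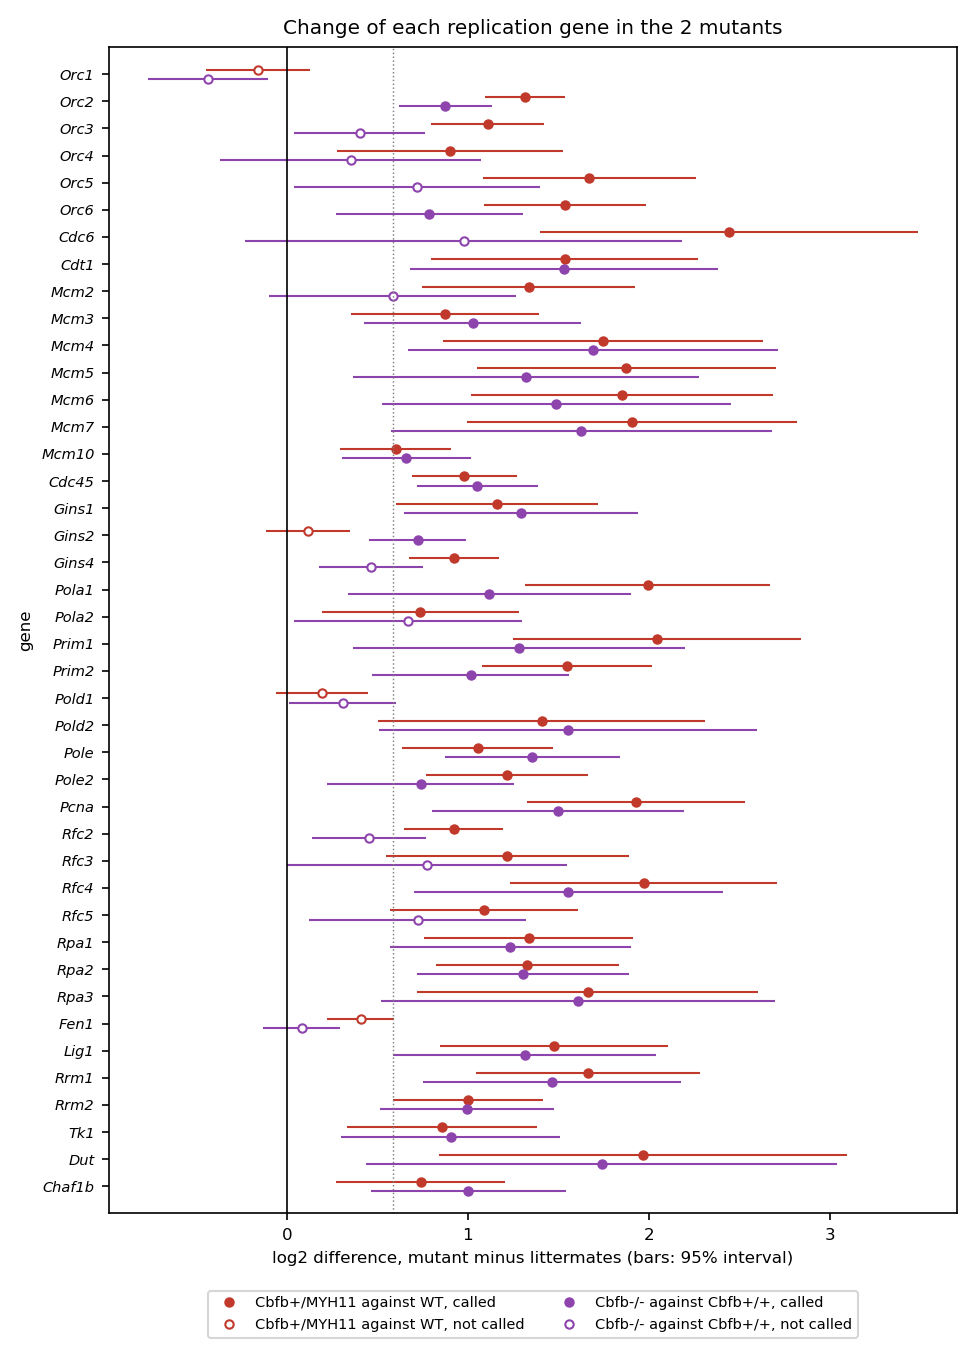
Log2 difference of each tested replication gene between Cbfb+/MYH11 and WT (red, 4 against 4 arrays) and between Cbfb-/- and Cbfb+/+ (purple, 3 against 3 arrays), with 95% intervals from limma. Filled points were called, open points were not, and the dotted line marks 1.5-fold. 38 red and 29 purple points are filled, and only Orc1 lies left of 0.

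Few genes differed between the mutants once each was set against its own littermates. In the test of the difference of the effects 1 of the 42 genes was higher with the fusion and 1 lower, where 14.9% of all tested genes were higher and 6.07% lower. The median difference was 0.28, against 0.09 over all tested genes. Orc3 was the higher one, by 0.71 (95% interval 0.23 to 1.18, adjusted p = 0.0313), from 8.31, 8.20, 8.58 and 8.48 in Cbfb+/MYH11 and from 6.97, 7.07, 7.54 and 7.54 in WT, against 7.86, 7.60 and 7.65 in Cbfb-/- and 7.47, 7.26 and 7.17 in Cbfb+/+. Gins2 was the lower one, by -0.60 (-0.96 to -0.25, adjusted p = 0.0162). The call of Orc3 ended without Cbfb+/+ array 1 or 2, Cbfb+/MYH11 array 3 or 4 or Cbfb-/- array 2 or 3 (0.62 to 0.73, adjusted p up to 0.0848). The call of Gins2 ended, under the 1.5-fold limit, without Cbfb+/+ array 1, Cbfb+/MYH11 array 2 or 4, Cbfb-/- array 2 or WT array 3 (-0.57 to -0.51).

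The largest differences that were not called were those of Cdc6, at 1.47 (95% interval -0.13 to 3.06, adjusted p = 0.164), Orc5 at 0.95 (adjusted p = 0.113) and Pola1 at 0.87 (adjusted p = 0.202). Orc5 and Pola1 were tested only through the Cbfb+/MYH11 arrays, so the size of their differences is uncertain. With the replicate number as a block Orc5 also passed, which made 2 genes higher, and with the array pair as a block 5 did, namely Orc3, Orc5, Orc6, Cdc6 and Mcm2. Without WT array 3 the count was 3, with Orc5 (1.17) and Orc6 (0.91) beside Orc3. These counts moved with the WT arrays used. In fits added after the data were seen, with WT arrays 1 and 2 left out together 0 genes were higher and 12 lower, and with WT arrays 3 and 4 left out 28 were higher and 0 lower. Over all 7393 tested genes these fits gave 1158 higher and 1199 lower, and 1879 higher and 526 lower, in place of 1099 and 449.

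Within the fusion cross the arrays were compared in the pairs 1 and 2, and 3 and 4, by the number in the labels. Of the 42 genes 38 rose in arrays 1 and 2, where 37.0% of all tested genes did, and 29 rose in arrays 3 and 4, where 24.6% did. The same 29 rose in both pairs, against 20.8% of all tested genes. The medians were 1.81 and 0.79, against 0.31 and 0.20 over all tested genes. Every one of the 42 genes had the larger difference in arrays 1 and 2, and for 28 the effect differed between the pairs, against 15.2% of all tested genes. The median of that difference was 1.07, against 0.09 over all tested genes. These p-values rest on the spread between the 2 arrays of a pair. After quantile normalization the count in arrays 3 and 4 was 15, and 16 with each array centred on the median of the tested genes.

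The calls of the pair difference were spread unevenly over the roles, and the roles themselves were not tested against each other. Of the 6 origin recognition genes 0 were called different between the pairs by limma, with differences from 0.08 (Orc2, 95% interval -0.32 to 0.47) to 0.69 (Orc6, 0.13 to 1.25, adjusted p = 0.0665). Orc6 alone of these had an unadjusted p under 0.05, and 3 of the 6 were called higher on WT arrays 3 and 4 than on WT arrays 1 and 2. Orc2 rose by 1.36 in arrays 1 and 2 and by 1.28 in arrays 3 and 4. Of the 11 helicase genes 7 were called different, with Mcm7 at 2.92 and 0.90, Mcm6 at 2.78 and 0.93, and Mcm4 at 2.70 and 0.80. Dut was at 3.05 and 0.88, and Cdc6 at 3.42 and 1.47, but both were under 5 on WT arrays 1 and 2, where readings may be background, so the size of these differences is uncertain. All 8 polymerase and primase genes but Pold1 differed, and so did all 4 genes of nucleotide supply. Rrm2 (1.64 and 0.36) and Tk1 (1.52 and 0.19) rose in arrays 1 and 2 and were not called in arrays 3 and 4.

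The step lay almost wholly in the WT arrays. Between WT arrays 3 and 4 and WT arrays 1 and 2, 32 of the 42 genes were higher, against 24.4% of all tested genes, with a median of 1.13 against 0.13. Dut was 2.57 log2 units higher on WT arrays 3 and 4, Cdc6 2.27, Rpa3 2.12, Mcm7 2.09, Pold2 2.03 and Mcm4 2.01. Orc2 (-0.09), Orc1 (-0.13) and Fen1 (0.02) were not called. Between the same pairs of Cbfb+/MYH11 arrays 2 genes were higher, against 7.78% of all tested genes, and 1 was lower, against 1.20%, with a median of 0.10. These were Orc4 (0.92), Rfc3 (0.59) and, lower on arrays 3 and 4, Rrm2 (-0.66). With WT arrays 1 and 2 left out together, 29 genes rose with the fusion, with a median of 0.71. Chaf1b, Mcm3, Mcm10, Orc4, Pola2, Pold2, Rfc3, Rfc5 and Tk1 then lost the call, at 0.21 (Pola2) to 0.57 (Rfc3). With WT arrays 3 and 4 left out the median was 1.88.

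**Figure D4:**
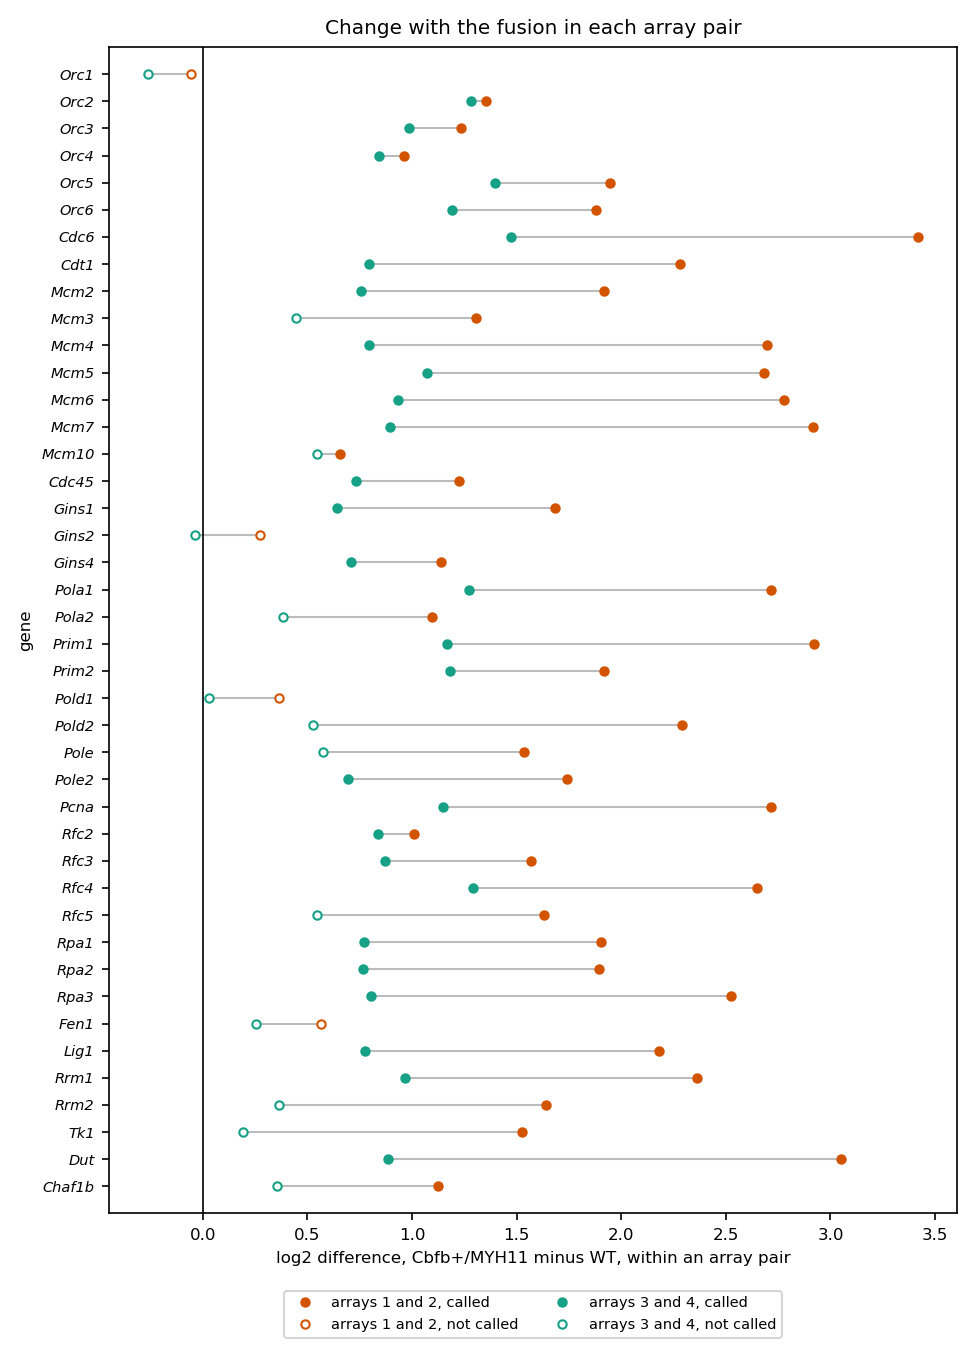
Log2 difference between Cbfb+/MYH11 and WT for each tested replication gene within arrays 1 and 2 (orange) and within arrays 3 and 4 (green), 2 against 2 arrays each. Filled points were called and open points were not. Every orange point lies to the right of its green point, by 0.08 (Orc2) to 2.16 (Dut).

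Single arrays ended some calls. With the fusion Mcm10 lost its call, under the 1.5-fold limit, without Cbfb+/MYH11 array 2, 3 or 4 or WT array 1 or 2 (0.52 to 0.58). Orc4 lost it without Cbfb+/MYH11 array 3 or 4 or WT array 1 or 2 (adjusted p of 0.0519 to 0.0554). Pola2 lost it without Cbfb+/MYH11 array 4 or WT array 1 (adjusted p of 0.0656 and 0.0568) and, under the limit at 0.46, without WT array 2. Chaf1b lost it without WT array 1 (0.58). In the other cross Dut, Mcm5, Prim1 and Rpa3 lost the call without any 1 of the 6 arrays of that cross, with an adjusted p of at most 0.0828, 0.0770, 0.0724 and 0.0634. Pold2 lost it without any of these arrays but Cbfb+/+ array 1 (at most 0.0593). The fit shares 1 spread per gene over all 4 groups, so the step between the WT pairs enters these p-values too. For Mcm5 the SD was 1.09 in WT, 0.09 in Cbfb-/- and 0.01 in Cbfb+/+. With the array pair as a block Cdc6, Orc5, Pola2, Rfc3 and Rfc5 were also called in Cbfb-/-.

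Other calls in Cbfb-/- rested on fewer arrays. Pola1 lost its call without Cbfb+/+ array 2 or 3 or Cbfb-/- array 2 or 3 (adjusted p of at most 0.0782), and Pole2 without Cbfb+/+ array 2 or 3 or Cbfb-/- array 1 or 3 (at most 0.0786). Mcm6 lost it without Cbfb+/+ array 2 or Cbfb-/- array 3 (0.0506 and 0.0517). Orc6 and Tk1 lost it without Cbfb+/+ array 3 (0.0832 and 0.0650) or Cbfb-/- array 1 (0.0732 and 0.0860), Mcm7 without Cbfb-/- array 1 (0.0502), and Mcm10, at 0.54, without Cbfb+/+ array 2. Their differences kept the sign in these fits.

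The wild types of the crosses were compared to show how far controls differ. Of the 42 genes 0 were higher in Cbfb+/+ than in WT and 2 lower by limma, where 5.48% of all tested genes were higher and 5.76% lower. At an unadjusted p under 0.05 there were 2 higher and 3 lower. The median was -0.03. This sets Cbfb+/+ against the mean of both WT pairs, and the medians of the replication genes in Cbfb+/+ (6.51 to 6.61) lay between those of WT arrays 1 and 2 (6.08 and 6.13) and of WT arrays 3 and 4 (7.13 and 6.97). Gins2 was lower by -0.73 (adjusted p = 7.53e-04) and Mcm10 by -0.71 (adjusted p = 0.00502), and Cdc45 was at -0.47 (adjusted p = 0.0306), under the 1.5-fold limit. Cross and pool cannot be told apart in this comparison. The Gins2 rise in Cbfb-/- was thus measured against littermates whose level lay under that of WT blood.

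Markers of other cells differed between the groups in both crosses. For 13 macrophage markers the log2 of their summed level was 11.5 to 11.7 on WT arrays 1 and 2, where 11 of 13 were at 6 or more. It was 9.66 to 9.69 on WT arrays 3 and 4 (5 of 13), 9.88 to 10.2 in Cbfb+/MYH11 (3 of 13), 9.07 to 9.22 in Cbfb-/- (3 of 13) and 11.2 in Cbfb+/+ (10 of 13). The signal was highest on WT arrays 1 and 2 and in Cbfb+/+, where the medians of the replication genes were lowest. Among the other arrays the summed level was higher in Cbfb+/MYH11 than on WT arrays 3 and 4, although fewer of the 13 markers were at 6 or more. Csf1r, the macrophage growth factor receptor, was at 8.71 to 9.17 in Cbfb+/MYH11, against 9.74, 9.85, 7.74 and 7.53 in WT. Lyz2 and Cd14, further markers of the list named after their values were seen, were likewise higher in Cbfb+/MYH11 (7.72 to 8.29 and 6.21 to 6.4) than on WT arrays 3 and 4 (6.51 and 6.55, and 5.38 and 5.69). Most markers of the list went the other way. Mrc1 and Ctss, named in the same manner, were at 3.77 to 4.01 and 4.41 to 4.72 in Cbfb+/MYH11. On WT arrays 3 and 4 they were at 6.19 and 6.17, and at 6.32 and 6.41.

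Platelet markers (9 measured) ran likewise, at 12.1 to 12.4 on WT arrays 1 and 2 (9 at 6 or more), 10.9 on WT arrays 3 and 4 (7), 10.7 to 11.1 in Cbfb+/MYH11 (5), 9.95 to 10.0 in Cbfb-/- (5 or 6) and 11.8 to 11.9 in Cbfb+/+ (9). Pf4, a platelet chemokine, was at 6.15 to 6.36 in Cbfb+/MYH11 and at 8.82 or more on every other array. The list was not uniform, since Tubb1, a platelet tubulin named after its values were seen, was at 10.03 to 10.54 in Cbfb+/MYH11, 9.32 to 10.33 in WT and 6.59 to 6.74 in Cbfb-/-. Liver and visceral endoderm markers (8 measured) were at 12.3 on WT arrays 1 and 2, 8.55 to 8.61 on WT arrays 3 and 4, 8.15 to 10.0 in Cbfb+/MYH11, 12.2 to 12.3 in Cbfb-/- and 10.9 in Cbfb+/+. Afp, their defining gene, was at 11.97 and 11.86 on WT arrays 1 and 2 and at 11.48 to 11.59 in Cbfb-/-, where the replication genes were high. The liver signal was thus high both on the arrays where the medians of the replication genes were lowest and in Cbfb-/-. Its part in the replication genes was not tested.

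Neural markers (10 measured) were at 8.17 to 8.21 on WT arrays 1 and 2, 9.72 to 9.75 on WT arrays 3 and 4, 9.36 to 10.9 in Cbfb+/MYH11, 11.4 to 11.6 in Cbfb-/- and 8.43 to 8.55 in Cbfb+/+. Their summed level was thus higher in Cbfb-/- than in its littermates, and higher with the fusion than in WT within each array pair. Cbfb+/MYH11 was at 9.36 and 9.37 against 8.17 and 8.21 in WT on arrays 1 and 2. On arrays 3 and 4 it was at 10.8 and 10.9 against 9.72 and 9.75. Across the pairs Cbfb+/MYH11 arrays 1 and 2 lay under WT arrays 3 and 4. Of the 10 markers 4 were at 6 or more on Cbfb+/MYH11 arrays 1 and 2, against 1 in WT. On arrays 3 and 4 these counts were 7 or 8, against 3. Nes and Pax6, named after their values were seen, were not higher with the fusion than in WT in either array pair. Sox2, a gene of neural progenitors, was at 3.53, 3.24, 6.40 and 6.63 on Cbfb+/MYH11 arrays 1 to 4, at 5.83 to 6.49 in Cbfb-/- and at most at 3.32 in both wild types. Mesenchyme markers (8 measured) were at 9.37 to 9.59 on WT arrays 1 and 2, 11.5 to 11.6 on WT arrays 3 and 4, 9.27 to 10.5 in Cbfb+/MYH11, 10.8 in Cbfb-/- and 10.1 to 10.2 in Cbfb+/+. Mast cell and basophil markers (8 measured) were at 11.0 to 11.4 in Cbfb+/MYH11 and at most at 8.13 on all other arrays. In Cbfb+/MYH11 5 of the 8 were at 6 or more, against at most 1 on any other array. Kit, Mcpt8 and Fcer1a, named after their values were seen, stayed under 6 on all arrays. Endothelial markers (6 measured) ranged from 7.31 to 7.77 over all arrays, and the red cell markers from 16.4 to 16.6. The red cell sum rests mostly on globins near the top of the range, such as Hbb-bh1 (13.96 to 14.5), and can hide single markers. Tspo2, named after its values were seen, was at 6.61 to 7.52 in Cbfb+/MYH11, 7.05 to 7.29 in Cbfb-/- and 9.33 to 10 in the wild types. Hemgn, named likewise, was higher in Cbfb+/MYH11 (11.65 to 12.15) than in WT (9.56 to 10.06). The part of these cells in the changes of the replication genes was not tested.

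Partners of the replication machinery outside the 46 genes were listed too. Of 55 such genes 52 had a probe set and 40 were tested. Some of the 40 reached the testing limit only through arrays of a mutant. For those a higher value in a mutant was partly a condition of their being tested. Of the 40 genes 29 rose with the fusion and 20 in Cbfb-/-, with 0 lower in either. These counts are read against the shares of all tested genes given above. The medians were 0.96 and 0.77. By the smallest adjusted p the first with the fusion were the histone chaperones Asf1b (1.52) and Asf1a (0.68), Rnaseh2a (1.00), a subunit of the nuclease that removes RNA from DNA, and the polymerase epsilon subunit Pole4 (0.76). In Cbfb-/- they were Rnaseh2a (0.74), Pole4 (0.67), the nucleoside diphosphate kinase Nme1 (0.68) and Gmnn (1.28), which encodes geminin, the inhibitor of Cdt1. Gmnn rose by 1.46 with the fusion, and it was among the genes tested only through mutant arrays.

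Asf1b differed between the mutants. It was at 8.95, 9.0, 8.62 and 8.56 in Cbfb+/MYH11, 6.93, 7.28, 7.48 and 7.37 in WT, 8.38, 8.12 and 8.27 in Cbfb-/- and 7.91, 7.93 and 7.97 in Cbfb+/+. Both mutants lay above their littermates. Its difference in Cbfb-/- was 0.32 (adjusted p = 0.0961), and the test of the difference gave 1.20 (95% interval 0.76 to 1.63, adjusted p = 7.88e-04). Dbf4, the activating subunit of the kinase that fires origins, rose by 1.81 with the fusion and 0.96 in Cbfb-/-. Cdc7, the catalytic subunit of that kinase, stayed between 5.25 and 5.86 and was not tested.

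The regulators that act on these genes did not move as 1 group. Of 22 E2F and cyclin E regulators 20 were tested, some of them only through arrays of a mutant. With the fusion 11 rose and 1 fell, with a median of 0.78, and in Cbfb-/- 7 rose and 3 fell, with a median of 0.37. Of all tested genes 30.5% rose and 5.63% fell with the fusion, and 19.5% and 6.65% in Cbfb-/-. E2f1, an activator of replication genes, was at 6.79 to 7.0, 6.67 to 6.94, 6.83 to 7.12 and 6.90 to 7.04 in Cbfb+/MYH11, WT, Cbfb-/- and Cbfb+/+. These ranges overlapped, and its differences of 0.10 (95% interval -0.09 to 0.30) and -0.01 (-0.24 to 0.21) were not called. Ccne1, a cyclin of the G1 to S transition, was at 0.46 (adjusted p = 0.281) and 0.61 (adjusted p = 0.238). Ccne2, its relative, rose by 2.17 and 1.16, from values of 3.33 to 4.7 in the wild types that may be background. Ccne2 reached 6 only on Cbfb+/MYH11 arrays, so it was tested only through the group where it is high. In Cbfb-/- it was at 4.78 to 5.1, which may be background too.

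Several of these regulators differed between the mutants. Rb1, which encodes the retinoblastoma protein that restrains E2F factors, was at 8.05, 8.38, 8.43 and 8.51 in Cbfb+/MYH11, 7.31, 7.73, 7.54 and 7.66 in WT, 6.90, 6.84 and 6.69 in Cbfb-/- and 7.51, 7.58 and 7.35 in Cbfb+/+. It was the highest in 1 mutant and the lowest in the other. It rose by 0.79 with the fusion and fell by 0.67 in Cbfb-/-, and the difference was 1.45 (95% interval 1.06 to 1.85, adjusted p = 8.29e-05). E2f2, known for a role in red cell maturation, fell by 1.28 in Cbfb-/- and was at -0.24 (adjusted p = 0.105) with the fusion. Rbl2 and E2f8 reached 6 only on the Cbfb+/MYH11 arrays, so they were tested only through the group where they are high, and their other readings may be background. Rbl2, a relative of Rb1, rose by 1.41 with the fusion, and so did the repressor E2f8 (1.69) and the kinase inhibitor Cdkn1a (1.38), none of which was called in Cbfb-/- (-0.03, 0.28 and 0.56). The differences were called for E2f2 (1.03), Rbl2 (1.44), E2f8 (1.42) and Cdkn1a (0.82). Cdc25a, the phosphatase that activates Cdk2, rose by 0.79 with the fusion and 1.23 in Cbfb-/-.

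Other probe sets of the 42 genes mostly gave the same picture. Beside the chosen ones 24 further probe sets, of 19 genes, passed the testing limit. In each mutant comparison 23 of the 24 had the same sign as the chosen probe set, and 20 with the fusion and 13 in Cbfb-/- were themselves called in the direction in which the chosen one was called, with 0 called in the opposite direction. In Cbfb-/- further probe sets of Fen1, Mcm2, Pold1, Rfc2 and Rfc3 were called where the chosen one was not. There a further probe set of each of Mcm3, Mcm4, Mcm6, Orc2 and Prim2 was not called where the chosen one was. With the fusion this held for Orc2, while a further probe set of Fen1 was called where the chosen one was not. Of the chosen probe sets 8 carry a suffix of the maker for probes that can also bind related transcripts, namely those of Mcm2, Mcm3, Mcm5, Mcm7, Gins2, Pold1, Fen1 and Rrm2.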

How the data were processed

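Labelled RNA of each blood pool (5 µg per labelling) was hybridised to an Affymetrix mouse expression array, 14 in all. Per the submitters' processing notes the authors used Affymetrix Expression Console and RMA, and deposited log2 values per probe set, with versions not given in the sources used here. Of 45101 probe sets 34958 carry 1 gene symbol, 932 several and 9211 none, and 34754 were found in RefSeq (GRCm38.p6). The table held 0 columns of other series.

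The deposited values were fitted with limma 3.58.1 in R 4.3.3 (lmFit, contrasts.fit, eBayes) over all 14 arrays, in 4 groups (10 residual degrees of freedom) or, for array pairs, 6 groups (8), with p-values adjusted by Benjamini-Hochberg over all tested genes. Every adjusted p is from limma, in these fits or, where the text says so, in the same fit under an alternative. The procedure was tested on simulated data, and intervals cover 95%. Arrays give no read depth, and their number limits the precision.

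All 46 genes may be named. Of the partner and regulator lists those with the 4 smallest adjusted p in each mutant comparison are named, with E2f1, Ccne1, Ccne2, Cdc7, Dbf4 and Gmnn, and of the markers Afp, Csf1r, Pf4 and Sox2. Further markers were named after their values were seen. The genes and lists were chosen with earlier results of these data known. Alternatives covered scaling, filters, probe sets, variance trend, blocks, pools and single arrays left out.

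Replicate numbers were checked as pairs. In the fusion cross same-numbered arrays deviated together over genes, with correlations of 0.521, 0.407, 0.499 and 0.499, and arrays of different pairs deviated oppositely. In the other cross these were 0.034, 0.011 and 0.017, so the numbers there did not pair the arrays. With the replicate block Orc5, Pola2, Rfc3 and Rfc5 were also called in Cbfb-/-.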

Additional observations from a re-analysis of the deposited data

Results flagged for a closer look

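Over the 42 tested genes 84 groups of 4 arrays were looked at for a single array far from the others, and chance gives such an array in about 1 of 20 groups. Prim1 was at 8.58 on Cbfb+/MYH11 array 1 and at 8.68 or more on the other 3, a small gap in a tight group. Pole2 was at 6.85 on Cbfb+/MYH11 array 2, with the next array at 6.38.

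The mutant effects, each against its own littermates, differed by test for Gins2 (-0.60, the fusion effect minus the Cbfb-/- effect) and Orc3 (0.71). Within the fusion cross the effect of 28 genes differed between arrays 1 and 2 and arrays 3 and 4. Marker sets of other cells also differed between these WT array pairs, and their part in this was not tested.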

How the results depend on the processing

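All arrays of a group may share a pool, and low readings may be background. With the arrays averaged to putative pools, limma called 0 genes higher with the fusion and 0 in Cbfb-/- (25 and 3 at an unadjusted p under 0.05). With the replicate number as a block the counts were 38 with the fusion and 33 in Cbfb-/-, and 2 higher and 1 lower in the difference between the mutants.

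In arrays 3 and 4 the count of 29 became 15 after quantile normalization and 16 with arrays centred on the tested genes, a setting chosen after seeing the data. Both gave 1 gene lower in Cbfb-/-, Orc1. The difference between the mutants had 5 genes higher with the array pair as a block. It had 0 higher with pools, quantile normalization, centring on the tested genes, no filter, or the mean of probe sets, and 0 lower with pools, centring on array medians, a filter at 7, or the mean of probe sets. Leaving out 1 array gave 0 to 3 higher and 0 to 1 lower. Cbfb+/+ against WT had 0 lower with a filter at 7 or the mean of probe sets. The median change with the fusion was 0.99 with centring on the tested genes.

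Leaving out WT array pairs was also chosen after seeing the data. Without WT arrays 1 and 2 the median was 0.71 and the difference had 0 genes higher and 12 lower, with Cdt1 at -0.83, Dut -1.06, Mcm4 -0.95, Mcm6 -0.60, Mcm7 -0.76 and Rpa3 -1.01. Without WT arrays 3 and 4 the median was 1.88, 28 were higher and 0 lower, and Pold2 was at 0.87. The cause was not tested.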
